A study of Mus musculus with 12 samples.

Results

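The 8 genes described here, Acod1, Nos2, Arg1, Arg2, Ass1, Slc7a2, Gch1 and Odc1, make itaconate or nitric oxide, or bring in, use up and rebuild arginine. They were found by gene symbol and make up 8 of the 55335 genes listed in every library. RNA was sequenced from mouse bone marrow-derived dendritic cells (BMDCs), grown for 6 days with the cytokine GM-CSF and selected for the surface protein CD11c. The 12 libraries form 4 groups of 3: unstimulated wild-type cells (WT), wild-type cells given 100 ng/ml lipopolysaccharide (LPS) for 3 h (WTL), unstimulated CTCF-depleted cells (KO) and CTCF-depleted cells given the same LPS (KOL). WT and WTL came from CreER mice and KO and KOL from CreER;CTCF fl/fl mice, all on the C57BL/6 strain, and the mice were littermates of both sexes aged 8 to 12 weeks. CreER, a Cre recombinase that 4-hydroxytamoxifen switches on, is expressed from the Rosa26 locus in all 4 groups, so deletion was not limited to dendritic cells. The drug was present only at the start of culture, and the sources leave unclear whether WT cultures received it, so that its own effect cannot be told apart from that of the deletion.

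Acod1 encodes the mitochondrial enzyme that turns cis-aconitate, an intermediate of the citric acid cycle, into itaconate, a metabolite that activated macrophages and dendritic cells make in large amounts and that restrains succinate dehydrogenase. Nos2, the inducible nitric oxide synthase, splits arginine into nitric oxide and citrulline, and needs the cofactor tetrahydrobiopterin, whose synthesis starts with GTP cyclohydrolase, the product of Gch1. Arginine enters the cell through cationic amino acid transporters such as Slc7a2, and citrulline is turned back towards arginine by Ass1, argininosuccinate synthase. The arginases Arg1 (cytosolic) and Arg2 (mitochondrial) compete for the same arginine and yield urea and ornithine, which Odc1, ornithine decarboxylase, passes into polyamine synthesis. A high Nos2 and a high Arg1 are commonly read as opposite states of activation in mouse myeloid cells.

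Libraries held 12769773 to 16586334 expected counts each. Ctcf, the deleted gene, had 549 ± 29.0 normalised counts in KO against 1004 ± 40.8 in WT (SD, n = 3), a log2 fold change of -0.87 (edgeR adjusted p = 3.9e-07), and the value includes any reads from outside the deleted part. All 10 dendritic cell markers reached 1 TPM (the deposited unit of level, corrected for transcript length and library size) in at least 3 libraries. B cell, T and NK cell and erythroid lists summed to at most 3.25 TPM and the mast cell list to at most 8.62 TPM, with Tpsb2 of the mast cell list at 0 in every library. Other myeloid markers moved with the genotype, the neutrophil list in both states. Of the neutrophil list 8 of 10 genes reached 1 TPM, and their summed level was 452 to 482 TPM in WT and 398 to 508 TPM in WTL against 242 to 273 TPM in KO and 334 to 390 TPM in KOL. All 10 genes of the macrophage and monocyte list reached 1 TPM, with sums of 784 to 849 TPM in WT and 999 to 1023 TPM in KO, while the dendritic cell sum was 10862 to 11420 TPM in WT and 7427 to 7732 TPM in KO. With LPS both of these sums overlapped between the genotypes, at 784 to 925 TPM in WTL and 920 to 1052 TPM in KOL for the macrophage and monocyte list and 10790 to 14827 TPM and 11174 to 15893 TPM for the dendritic cell list. The part of these shifts in the results below was not tested, and in bulk RNA fewer cells of a type and less RNA per cell cannot be told apart. One WTL library, replicate 2, had 5.17% of its counts on ribosomal RNA genes against at most 1.19% in the others.

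Together the 8 genes took 0.0844 to 0.0868% of all TPM in WT and 0.253 to 0.327% in WTL. In KO the share was 0.0515 to 0.0524% and in KOL 0.134 to 0.152%, so that the 4 groups did not overlap. Most of this share was Acod1 alone in WTL and KOL, and Ass1 and Acod1 together in WT and KO. Levels of the 8 genes per length spanned from under 1 TPM for Nos2 without LPS to between 1619 and 2216 TPM for Acod1 in WTL. In WT the order from high to low was Ass1, Acod1, Odc1, Slc7a2, Arg2, Gch1, Arg1 and Nos2, and Arg2 and Gch1 were the only neighbours whose libraries overlapped. Under LPS Acod1 moved to the top and Nos2 passed both arginases in WTL, where Ass1 and Slc7a2 overlapped. In KO Gch1 lay above Slc7a2 and Arg2, which overlapped. In KOL Nos2 stayed below Arg2, and Odc1 and Slc7a2 overlapped.

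**Figure D1:**
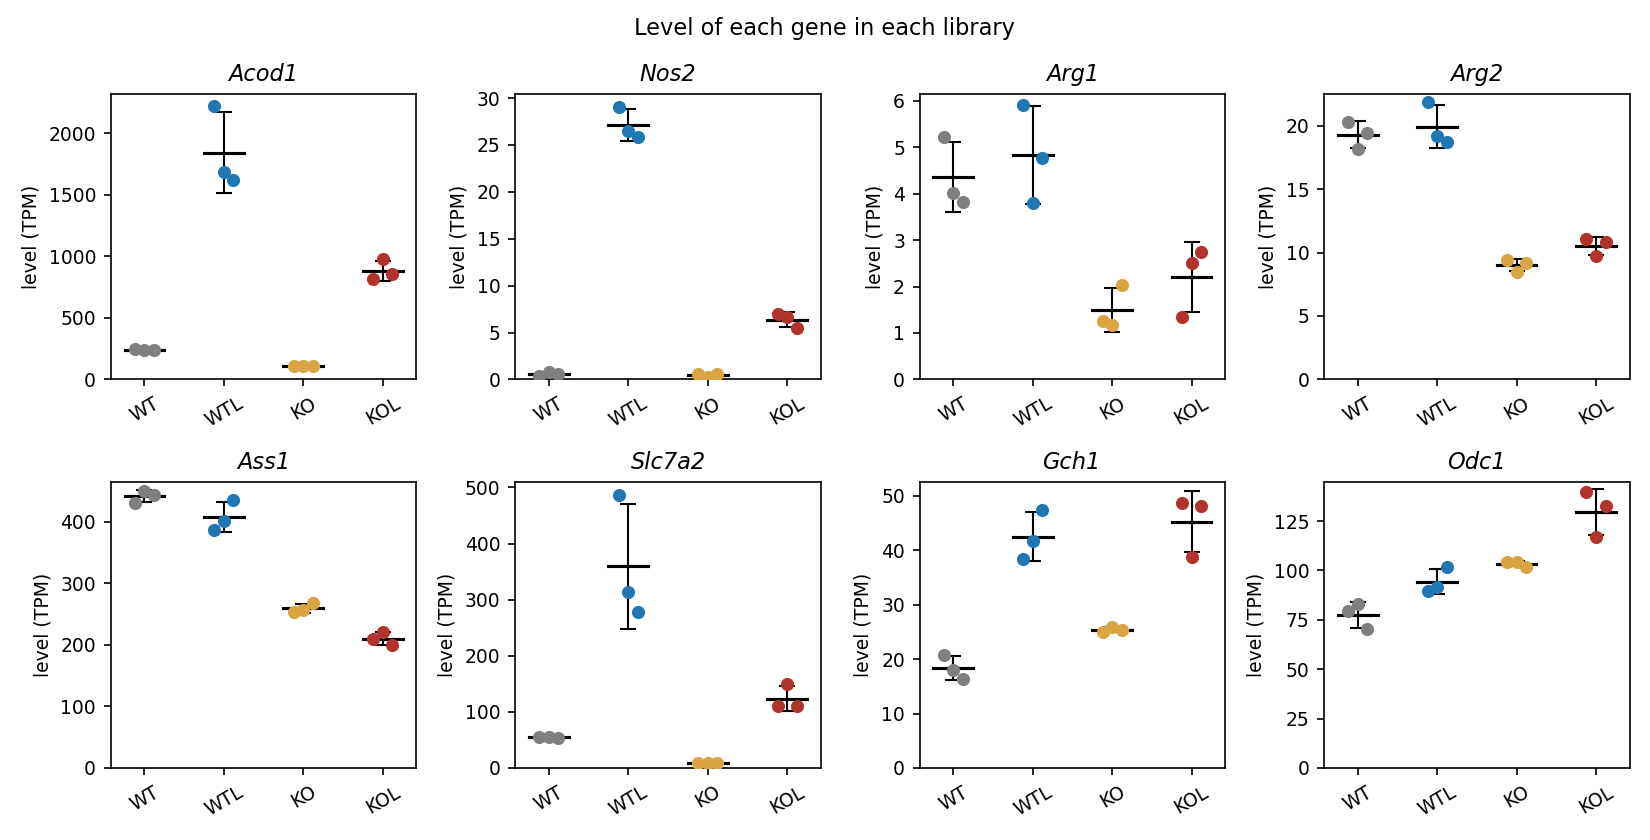
Level of each of the 8 genes in each of the 12 libraries, in TPM on linear axes that start at 0, with 3 libraries per group (points), the group mean (bar) and the SD (whiskers). Acod1, Nos2, Slc7a2 and Gch1 are higher in both LPS groups than in both groups without LPS, and for Acod1 and Slc7a2 the WT libraries also lie above the KO libraries. Ass1, Arg1 and Arg2 are set apart mainly by genotype.

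LPS raised the genes of itaconate and nitric oxide synthesis and the arginine transporter, and the other 4 genes stayed below the threshold for a call. In WTL against WT, 4 of the 8 genes rose (Nos2, Acod1, Slc7a2 and Gch1) and 0 fell, where a call needed an adjusted p under 0.05 in edgeR's quasi-likelihood test and a change above 2-fold. Of the 14008 genes tested 12.6% rose and 9.99% fell by the same rule. In KOL against KO the same 4 genes rose and 0 fell, beside 15.1% and 13.0% of all genes tested. DESeq2 also called 0 lower with LPS in either genotype, and 0 of the 8 were lower at an unadjusted p under 0.05 in edgeR. On log2(TPM + 1) the LPS values of all 8 genes were smaller in both genotypes, and the median of all genes tested moved by -0.45 in WT and -0.40 in KO on that scale, against -0.02 in both on the TMM-normalised counts used for the tests.

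CTCF depletion lowered most of the group in both states. In KO against WT, 5 genes fell (Slc7a2, Arg1, Acod1, Arg2 and Ass1) and 2 rose (Gch1 and Odc1) by an adjusted p under 0.05 and a change above 1.3-fold, where 17.2% of all genes tested fell and 17.3% rose. In KOL against WTL, 6 genes fell (the same 5 and Nos2) and 0 rose by a change above 1.5-fold, beside 12.5% of all genes in each direction. DESeq2 too called 0 higher there, and 1 gene, Odc1, was higher at an unadjusted p under 0.05 in edgeR. The median log2 fold change of the 8 genes was -0.83 without LPS and -0.98 with LPS, while that of all genes tested was -0.014 and -0.035. The 5 comparisons share groups (WT serves both the LPS and the genotype contrast, for example), so they are not independent of each other. No source ties libraries to separate cultures beyond calling them biological replicates, and the p-values measure only the spread between these libraries. That spread was estimated over all 12 libraries together, although the groups differed in it. The biological coefficient of variation was 4.9% in WT, 2.6% in KO, 13.7% in WTL and 14.4% in KOL. In edgeR fits of only the 6 libraries compared, every called gene of the 8 had a higher adjusted p for KOL against WTL. For KO against WT every called gene had a lower one. The numbers of the 8 genes called did not change.

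**Figure D2:**
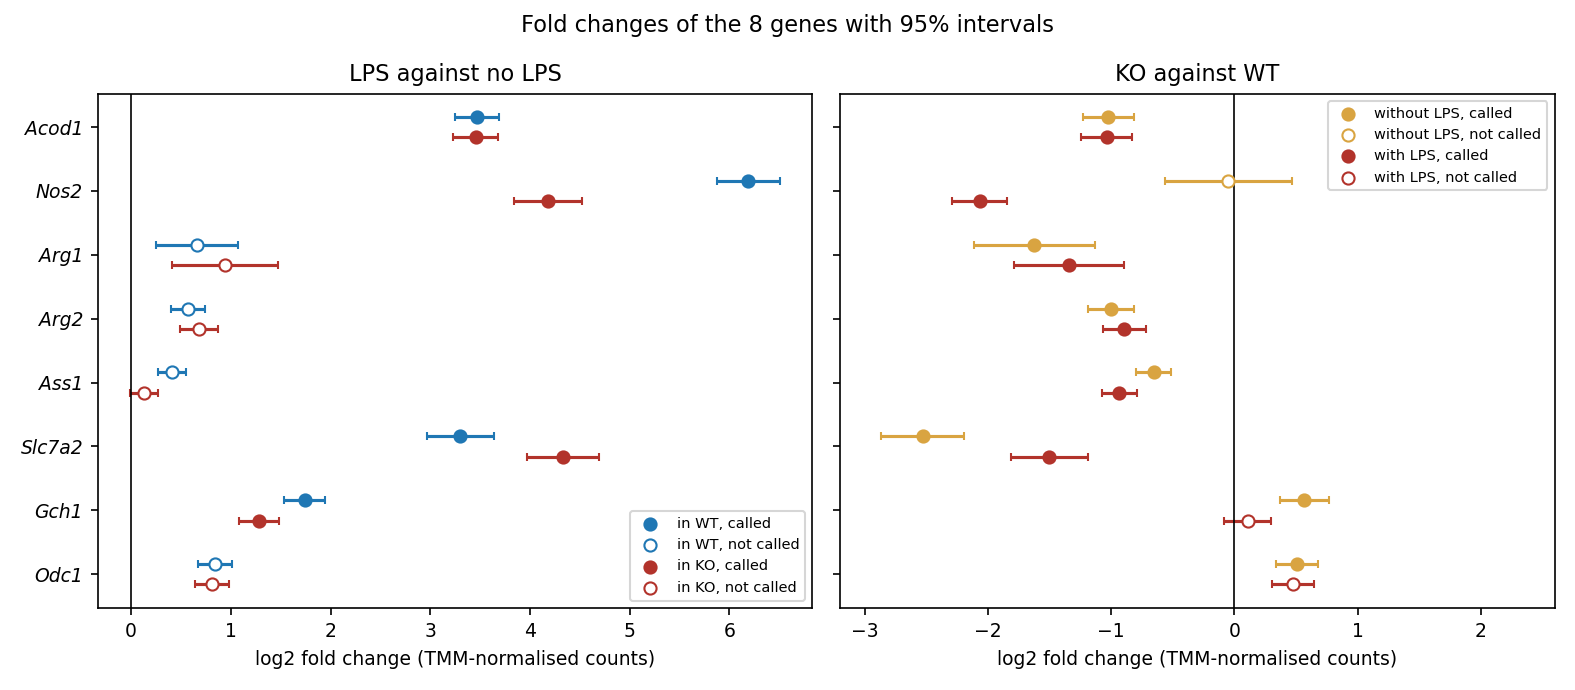
Log2 fold change of each gene on TMM-normalised counts with its 95% interval, for LPS against no LPS (left, in WT and in KO) and for KO against WT (right, without and with LPS), with filled points for calls and open points for values not called. Nos2 has the highest LPS value in WT at 6.19, and Slc7a2 the lowest genotype value without LPS at -2.53.

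Acod1 (ENSMUSG00000022126.6, mm10 chromosome 14, 103046977 to 103056573, plus strand, a protein-coding gene with 1 annotated transcript) had the highest LPS-stimulated level of the 8 genes. Its level was 244, 239 and 236 TPM in the WT libraries and 2216, 1688 and 1619 TPM in the WTL libraries. In KO it was 113, 110 and 108 TPM, and in KOL 813, 975 and 853 TPM. Each group lay apart from the others, and every KO library was below every WT library of the same state. LPS raised Acod1 by 3.47 on the log2 scale in WT (SE 0.12, adjusted p = 4.9e-12) and by 3.45 in KO (SE 0.11, adjusted p = 4.2e-12). The deletion left 49.3% of the WT level without LPS (log2 fold change -1.02, adjusted p = 2.3e-06) and 48.8% with LPS (-1.04, adjusted p = 2e-06). The LPS response itself was not found to differ by genotype, with a difference of -0.014 and an approximate 95% interval of -0.30 to 0.28 on the log2 scale.

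Promoter sequence was at hand for 4 of the 8 genes (Acod1, Ass1, Gch1 and Odc1) in RefSeq's table for GRCm38.p6, as 250 bases before and 50 after the start. Acod1 and Gch1 are printed because they are the pair among these 4 that LPS raised in both genotypes, each 5′ to 3′ in lower case and ending before the first annotated start. The Acod1 stretch is chr14:103046762-103046976 on the plus strand and the Gch1 stretch is chr14:47189414-47189663 on the minus strand. Capitals mark a match to a fixed form of the kappaB decamer, a pattern that NF-κB dimers bind, and sites that deviate from this form are not marked.

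Acod1: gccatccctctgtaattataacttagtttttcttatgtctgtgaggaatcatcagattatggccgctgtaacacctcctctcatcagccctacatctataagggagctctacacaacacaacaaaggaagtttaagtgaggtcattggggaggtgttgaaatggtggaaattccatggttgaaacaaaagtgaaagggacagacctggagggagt

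Gch1: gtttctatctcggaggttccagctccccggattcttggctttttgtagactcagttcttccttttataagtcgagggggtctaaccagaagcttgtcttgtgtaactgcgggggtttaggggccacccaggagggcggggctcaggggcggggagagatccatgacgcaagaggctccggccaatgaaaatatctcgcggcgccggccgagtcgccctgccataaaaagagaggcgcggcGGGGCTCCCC

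Both strands of the 300-base windows were searched for 7 patterns: the kappaB decamer, the E-box CACGTG, the cyclic AMP element TGACGTCA, the STAT-type TTCNNNGAA, the interferon element core GAAANNGAA, the AP-1 pattern TGANTCA and the C/EBP pattern TTGCNNAA. The kappaB match in Gch1 spans bases 10 to 1 upstream of the start, and 4.51% of the 32851 promoters in the table hold one. The E-box was found in Ass1, 36 to 31 bases upstream of the RefSeq start, and is held by 7.15% of promoters. Neither the Acod1 nor the Odc1 window matched any of the 7 patterns, of which the remaining 5 are held by 1.79% (cyclic AMP element), 8.3% (STAT type), 8.56% (interferon core), 7.81% (AP-1) and 10.8% (C/EBP) of promoters. These matches describe letters in a window and not binding, and the lack of a match does not show a lack of binding. At the Acod1 promoter the paper reports binding of the NF-κB subunit RelA in LPS-stimulated wild-type cells. It also reports loops from that promoter to upstream enhancer regions.

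Nos2 (ENSMUSG00000020826.9, chromosome 11, 78920787 to 78960254, plus strand) went from near absence to a level above both arginases in wild-type cells. It had 15.6, 27.7 and 22.5 normalised counts in the WT libraries and 25.12, 13.44 and 25.01 in the KO libraries. With LPS it had 1694, 1675 and 1501 normalised counts in WTL and 413, 407 and 343 in KOL. The groups without LPS overlapped, and the KOL libraries lay well apart from both the WTL libraries and the unstimulated ones. LPS raised Nos2 by 6.19 on the log2 scale in WT (73.1-fold, SE 0.16, adjusted p = 4.8e-13), the 30th highest value of 14008, and by 4.18 in KO (18.1-fold, SE 0.17, adjusted p = 4.8e-11). Nos2 in KOL was 23.9% of its level in WTL (log2 fold change -2.07, SE 0.12, adjusted p = 4.5e-09). Without LPS no difference between the genotypes was detectable at these low counts, with a 95% interval of -0.57 to 0.46. The difference between the LPS responses, KO minus WT, was -2.02 on the log2 scale (the interaction term, SE 0.29, adjusted p = 0.00035).

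Gch1 (ENSMUSG00000037580.10, chromosome 14, 47153895 to 47189413, minus strand), the entry step of cofactor supply for Nos2, rose with LPS but did not fall with the deletion. Its level was 20.8, 18.0 and 16.4 TPM in WT and 24.9, 25.8 and 25.4 TPM in KO. With LPS it was 38.5, 41.7 and 47.4 TPM in WTL and 48.7, 38.8 and 48.2 TPM in KOL. The KO libraries were all above the WT libraries, and the 2 LPS groups overlapped. LPS raised it by 1.74 in WT (SE 0.10, adjusted p = 2.4e-09) and by 1.28 in KO (SE 0.10, adjusted p = 4.8e-08), both on the log2 scale. Gch1 was 0.57 higher in KO than in WT (SE 0.10, adjusted p = 0.00042), while with LPS the difference was 0.11 with a 95% interval of -0.08 to 0.30. Its interaction term of -0.46 passed the threshold narrowly (adjusted p = 0.039), and it missed the threshold in 9 of the 12 fits that each left out 1 library. The LPS rise in KO was 0.80 on log2(TPM + 1), under the 2-fold needed.

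Slc7a2 (ENSMUSG00000031596.15, chromosome 8, 40862396 to 40922308, plus strand), a transporter of arginine, lysine and ornithine, showed the greatest genotype difference of the 8 genes without LPS. Its level was 55.9, 54.3 and 54.1 TPM in WT and 8.87, 8.73 and 9.62 TPM in KO. With LPS it reached 486, 314 and 278 TPM in WTL and 110, 150 and 110 TPM in KOL. No 2 groups overlapped, and KOL lay above WT but below WTL. Slc7a2 in KO was 17.3% of its WT level (log2 fold change -2.53, SE 0.17, adjusted p = 2.8e-08), the 214th lowest value of 14008. In KOL it was 35.4% of the WTL level (-1.50, SE 0.16, adjusted p = 3.6e-06). LPS raised it by 3.30 in WT (SE 0.17, adjusted p = 6.5e-10) and by 4.33 in KO (SE 0.18, adjusted p = 5.8e-11), so that the response in KO was larger by 1.03 (SE 0.23, adjusted p = 0.0067) although its end level stayed lower. The effective length of Slc7a2, which averages the lengths of its 5 annotated transcripts by their use, was 6912 to 6954 bases in WT and 7173 to 7302 in WTL, and 6451 to 7175 in KO and 7159 to 7432 in KOL, where the groups overlapped.

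The sign of the interaction thus differed between the nitric oxide synthase and the arginine transporter. For Nos2 the genotypes overlapped before LPS and were apart after it. For Slc7a2 they were furthest apart before LPS, with a 5.77-fold difference, and 2.83-fold apart after it. Gene-by-gene tests of the interaction called 1 of the 8 genes higher and 2 lower, beside 8.7% and 8.75% of all genes tested.

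Ass1 (ENSMUSG00000076441.9, chromosome 2, 31470207 to 31520672, plus strand) was the highest of the 8 genes without LPS. Its level was 431, 451 and 444 TPM in WT and 253, 257 and 267 TPM in KO. With LPS it was 387, 402 and 436 TPM in WTL and 210, 221 and 199 TPM in KOL. The genotypes were apart in both states, at 63.5% of the WT level without LPS (log2 fold change -0.66, adjusted p = 4.2e-06) and 52.4% with LPS (-0.93, adjusted p = 1.3e-07). Against LPS its direction depended on the scaling, with 0.41 in WT on TMM-normalised counts and -0.12 on log2(TPM + 1), and 0.13 in KO against -0.30. None of these passed the 2-fold threshold. The LPS response of Ass1 in KO minus that in WT was -0.28 (adjusted p = 0.078) and was called in DESeq2 at -0.27 (adjusted p = 0.026).

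Arg1 (ENSMUSG00000019987.9, chromosome 10, 24915221 to 24927484, minus strand) was scarce in all 4 groups. Its level was 5.21, 4.02 and 3.82 TPM in WT and 1.25, 1.18 and 2.03 TPM in KO. With LPS it was 5.91, 3.80 and 4.77 TPM in WTL and 1.34, 2.50 and 2.75 TPM in KOL. The TPM ranges with and without LPS overlapped in both genotypes, although the normalised counts did not, and every KO and KOL library lay below every WT and WTL library. Arg1 in KO was 32.3% of WT (log2 fold change -1.62, SE 0.25, adjusted p = 0.0001) and in KOL 39.2% of WTL (-1.34, SE 0.23, adjusted p = 0.00026). Its LPS values of 0.66 in WT (SE 0.21) and 0.94 in KO (SE 0.27) were under 2-fold. The value in KO was called at 1.08 (adjusted p = 0.0088) without KO replicate 3 and at 1.14 (adjusted p = 0.0023) without KOL replicate 1. With 16.2 to 21.3 normalised counts per KO library, Arg1 was measured less precisely than the more abundant genes.

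Arg2 (ENSMUSG00000021125.6, chromosome 12, 79130777 to 79156301, plus strand) was the more abundant arginase, at 20.3, 18.2 and 19.4 TPM in WT and 21.9, 19.2 and 18.7 TPM in WTL. In KO it was 9.39, 8.46 and 9.20 TPM and in KOL 11.04, 9.72 and 10.79 TPM. The wild-type libraries were all above the CTCF-depleted ones. The deletion left 49.9% of the WT level (SE 0.09 on the log2 scale, adjusted p = 8.6e-07) and 53.8% of the WTL level (log2 fold change -0.89, SE 0.09, adjusted p = 2e-06). The LPS values were 0.57 in WT and 0.68 in KO on normalised counts, both under 2-fold. Arg2, Ass1 and Odc1 had fractional expected counts in every library, which means that some of their reads were shared with other loci, so their values carry that uncertainty. The end of Arg2 overlaps Vti1b on the opposite strand, which had 391 to 722 expected counts per library, and whether counting used strand is not given in the sources used here.

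Odc1 (ENSMUSG00000011179.8, chromosome 12, 17544794 to 17551505, plus strand) went against the arginases that supply its substrate between the genotypes, but not with LPS on normalised counts. Its level was 79.5, 83.1 and 70.2 TPM in WT and 104, 104 and 102 TPM in KO. With LPS it was 89.8, 91.6 and 102 TPM in WTL and 140, 117 and 133 TPM in KOL. KO lay above WT and KOL above WTL in all libraries. Odc1 rose by 0.51 in KO against WT (SE 0.09, adjusted p = 0.00026), while its value of 0.48 in KOL against WTL (SE 0.09, adjusted p = 0.00041) was under the 1.5-fold needed there. LPS gave 0.84 in WT and 0.81 in KO, both under 2-fold, and the difference between these of -0.03 had a 95% interval of -0.27 to 0.21. Under glmTreat, which tests against the 1.3-fold cutoff itself, neither Odc1 nor Gch1 was called in KO against WT.

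Within libraries, the order of Nos2 and Arg1 turned with LPS in both genotypes. The ratio of Nos2 to Arg1 in TPM was 0.0729, 0.184 and 0.139 in WT and 4.92, 6.97 and 5.43 in WTL. In KO it was 0.448, 0.263 and 0.276, and in KOL 5.24, 2.64 and 2.01. The KO ratios lay above the WT ones, and the WTL and KOL ratios overlapped. Against Arg2, which the cells had more of, Nos2 was above 1 in all 3 WTL libraries (1.33, 1.38 and 1.39) and below 1 in all 3 KOL libraries (0.636, 0.680 and 0.512). The ratio of Slc7a2 RNA to Ass1 RNA was 0.121 to 0.130 in WT, 0.637 to 1.25 in WTL, 0.0339 to 0.0360 in KO and 0.524 to 0.678 in KOL. It compares the RNA of 1 arginine importer with that of 1 enzyme of citrulline recycling, and neither process was measured. These ratios are descriptions, and with 3 libraries against 3 no permutation test was run.

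**Figure D3:**
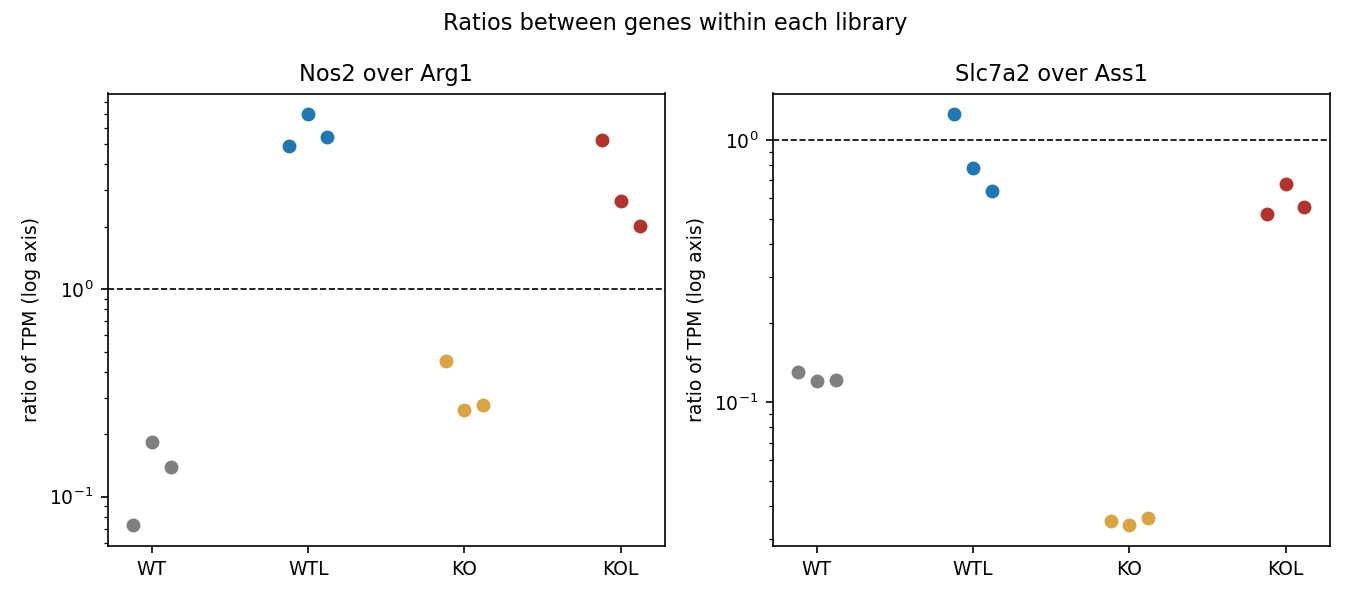
Ratio of TPM between 2 genes within each of the 12 libraries on a log axis, for Nos2 over Arg1 (left) and Slc7a2 over Ass1 (right), with points as libraries and a dashed line at 1. Nos2 over Arg1 crosses 1 with LPS in all 6 stimulated libraries, and Slc7a2 over Ass1 is above 1 in a single WTL library at 1.25.

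The 8 genes fell into differing patterns over the 12 libraries. Likeness was measured as the root mean square difference of log2(normalised count + 1), each gene centred on its own mean, and 9338 genes with a mean of at least 100 normalised counts were compared. Among the members, Arg2 and Ass1 were closest (0.25), followed by Arg1 and Arg2 (0.35) and by Gch1 and Odc1 (0.37), and Nos2 and Ass1 were furthest apart (2.51). The 3 genes nearest to Acod1 were Irgm2 (0.17), Sdc4 (0.20) and Gm4070 (0.22), and Irgm2 is an interferon-inducible GTPase. Slc7a2 lay nearest to Slfn1 (0.20), Oas2 (0.21) and Tnf (0.31), the last 2 being an antiviral oligoadenylate synthetase and the cytokine tumour necrosis factor. For Nos2 the nearest were Cxcl10 (0.51), a chemokine, Tnfsf15 (0.59) and Gbp5 (0.60), so no gene of this level matched it closely. Arg2 was nearest to H2-DMb1 (0.097), which helps load peptides on MHC class II, Camk2d (0.11) and Scimp (0.12). Arg1 was nearest to Ccdc122 (0.17), Osbpl3 (0.23) and Pls3 (0.25), and Ass1 to Llgl1 (0.094), Nkiras2 (0.11) and Emp3 (0.12). Gch1 was nearest to Pttg1 (0.097), Rmdn3 (0.13) and Tpst1 (0.14), and Odc1 to H2-K1 (0.080), a classical MHC class I gene, Prdx5 (0.091) and Ube2f (0.093).

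Around the itaconate step, 12 other genes of the citric acid cycle, succinate dehydrogenase, transport and itaconate breakdown were listed, of which 11 were tested. In KO against WT 5 rose and 2 fell, beside 17.3% and 17.2% of all genes tested. The median of the 11 was 0.31 beside -0.014 for all genes. Sdha, the succinate dehydrogenase subunit that itaconate acts on, rose from 2564 ± 81.7 to 3754 ± 125 normalised counts (SD, n = 3, log2 fold change 0.55, adjusted p = 5.3e-06). Slc25a1, the mitochondrial citrate carrier, fell from 449 ± 27.1 to 188 ± 10.9 (-1.25, adjusted p = 6.6e-05). In KOL against WTL 0 rose and 2 fell, Slc25a1 (-0.66, adjusted p = 0.0052) and Clybl, which clears a product of itaconate breakdown. Of all genes tested 12.5% went each way there. LPS raised 1 of the 11 in WT (Slc13a3) and 1 in KO (Slc25a1, 1.57, adjusted p = 3.3e-06), and lowered 0 in either. Of all genes tested it raised 12.6% and lowered 9.99% in WT, and raised 15.1% and lowered 13.0% in KO. The LPS response was lower in KO for 4 of the 11 and higher for 1, beside 8.75% and 8.7% of all genes tested. Among these Sdhc had -0.35 (adjusted p = 0.017) and Auh 0.43 (adjusted p = 0.031).

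Of 12 other genes of nitric oxide synthesis, its cofactor and its sensing, 7 were tested, and the neuronal and endothelial synthases Nos1 and Nos3 were among those left out, with at most 2.14 and 3.71 normalised counts in any library. LPS called 0 of 7 in either genotype in edgeR and in DESeq2. Of all genes tested 12.6% rose and 9.99% fell in WT, and 15.1% rose and 13.0% fell in KO. Among the 7, 2 in WT and 5 in KO had an unadjusted p under 0.05 in edgeR. The 5 in KO also had an adjusted p under 0.05 and missed only the 2-fold cutoff, among them Nosip, which encodes a protein that binds nitric oxide synthase, at -0.84 (adjusted p = 3.1e-06), and the median of the 7 there was -0.45 beside -0.02 for all genes. In KO against WT 1 rose, beside 17.3% of all genes tested. It was Pts, the step after Gch1 in tetrahydrobiopterin synthesis, which went from 447 ± 57.5 to 798 ± 20.4 normalised counts (0.84, adjusted p = 4.1e-06). In KOL against WTL 1 rose, beside 12.5% of all genes tested. It was Spr, the last step of that synthesis, which went from 194 ± 64.4 to 306 ± 75.3 (0.64, adjusted p = 0.017). The interaction called 0 of 7 in edgeR and 1 in DESeq2, with 2 at an unadjusted p under 0.05 in edgeR. Of all genes tested edgeR called 8.7% higher and 8.75% lower.

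Of 11 other genes of arginine and citrulline handling 7 were tested. Gatm, which uses arginine to begin creatine synthesis, rose from 243 ± 29.2 in WT to 731 ± 6.59 normalised counts in KO (1.59, SE 0.09, adjusted p = 4.2e-09) and from 337 ± 9.76 in WTL to 792 ± 70.9 in KOL (1.23, adjusted p = 6.4e-08). Its partner in that path Gamt also rose in KO, as did Aldh18a1, which starts proline and ornithine synthesis from glutamate (0.48, adjusted p = 0.0022). In all, 3 of 7 rose and 0 fell in KO against WT, beside 17.3% and 17.2% of all genes tested. In KOL against WTL 2 rose (Ddah2 and Gatm) and 0 fell, beside 12.5% of all genes in each direction. LPS raised 0 in WT and 1 in KO (Ddah2), beside 12.6% and 15.1% of all genes. The remaining 4 of the 7 were not called in KO against WT, where 17.3% of all genes tested rose, and among them Oat, which links ornithine to proline, was at -0.20 (adjusted p = 0.025). The interaction called 0 of 7 in edgeR and in DESeq2, with 3 at an unadjusted p under 0.05 in edgeR. Of all genes tested edgeR called 8.7% higher and 8.75% lower.

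Among 8 further genes of cationic amino acid transport, all tested, 3 rose and 0 fell in KO against WT. Of all genes tested 17.3% rose and 17.2% fell. Slc7a7, which exchanges cationic for neutral amino acids, rose from 277 ± 14.0 to 433 ± 33.2 normalised counts (0.65, adjusted p = 5.3e-05) and was also higher in KOL than in WTL (0.64, adjusted p = 9.2e-05). Slc7a1, the other main arginine importer, rose from 495 ± 4.06 to 664 ± 38.4 (0.42, adjusted p = 0.0049) while Slc7a2 fell. In KOL against WTL 2 rose and 1 fell (Slc7a3), beside 12.5% of all genes tested in each direction. LPS raised 1 in WT (Slc7a3) and 0 in KO, beside 12.6% and 15.1% of all genes tested. It lowered 0 in WT and 1 in KO (Slc7a4), beside 9.99% and 13.0%. The LPS response was lower in KO for 3 of the 8, beside 8.75% of all genes tested. Its difference was -0.55 for Slc7a1 (adjusted p = 0.023) and -0.28 for Slc3a2, the shared heavy chain (adjusted p = 0.048).

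The polyamine list held 17 genes besides Odc1, of which 15 were tested. In KO against WT 4 rose and 0 fell, beside 17.3% and 17.2% of all genes tested. The largest rise was that of Azin2 (3.50, adjusted p = 1e-07), followed by Paox (0.56, adjusted p = 0.0066). Oaz2, an antizyme that marks Odc1 for destruction, rose by 0.49 (adjusted p = 0.011). Dohh, which completes the hypusine of Eif5a, rose by 0.44 (adjusted p = 0.00035). In KOL against WTL 1 rose (Azin2) and 0 fell, beside 12.5% of all genes tested in each direction. LPS raised Smox, spermine oxidase, in both genotypes, from 824 ± 26.2 to 1911 ± 244 normalised counts in WT (1.21, adjusted p = 3.5e-08) and from 754 ± 44.6 to 2386 ± 112 in KO (1.66, adjusted p = 1e-09). The Smox response was larger in KO by 0.45 (adjusted p = 0.026). LPS lowered 2 of the 15 in each genotype, beside 9.99% of all genes tested in WT and 13.0% in KO. They were Amd2 and Paox in WT and Paox and Atp13a3 in KO, with -1.05 for Atp13a3, a polyamine transporter (adjusted p = 1.1e-05).

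Genes that are often read together with Arg1 as marks of alternative activation did not share one direction. Of 12 tested, 5 fell and 2 rose in KO against WT, beside 17.2% and 17.3% of all genes tested. Pdcd1lg2, the checkpoint ligand PD-L2, fell from 726 ± 44.6 to 272 ± 14.0 normalised counts (-1.42, adjusted p = 7.3e-09), and Chil3, a chitinase-like protein, fell from 8721 ± 302 to 3412 ± 108 (-1.35, adjusted p = 1.3e-05). In KOL against WTL 6 fell and 3 rose, beside 12.5% of all genes tested in each direction. Fn1, fibronectin, had the lowest value there (-1.69, adjusted p = 1.8e-08), and Retnla, a secreted resistin-like protein, went from 7.45 ± 6.42 to 250 ± 4.17 normalised counts (5.14, adjusted p = 3.1e-08). Ccl24, a chemokine, rose from 27.9 ± 3.10 to 196 ± 41.2 (2.80, adjusted p = 3.9e-08). LPS raised 3 and lowered 0 in WT, beside 12.6% and 9.99% of all genes tested. In KO it raised 4 and lowered 1, beside 15.1% and 13.0%. The rises were led in both by the chemokine Ccl22 (3.00 in WT, adjusted p = 1.5e-12) and Ccl17 (1.44 in WT, adjusted p = 1.9e-10). The interaction called 4 higher and 3 lower, beside 8.7% and 8.75% of all genes tested, with 0.65 for Pdcd1lg2 and -1.35 for Fn1.

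**Figure D4:**
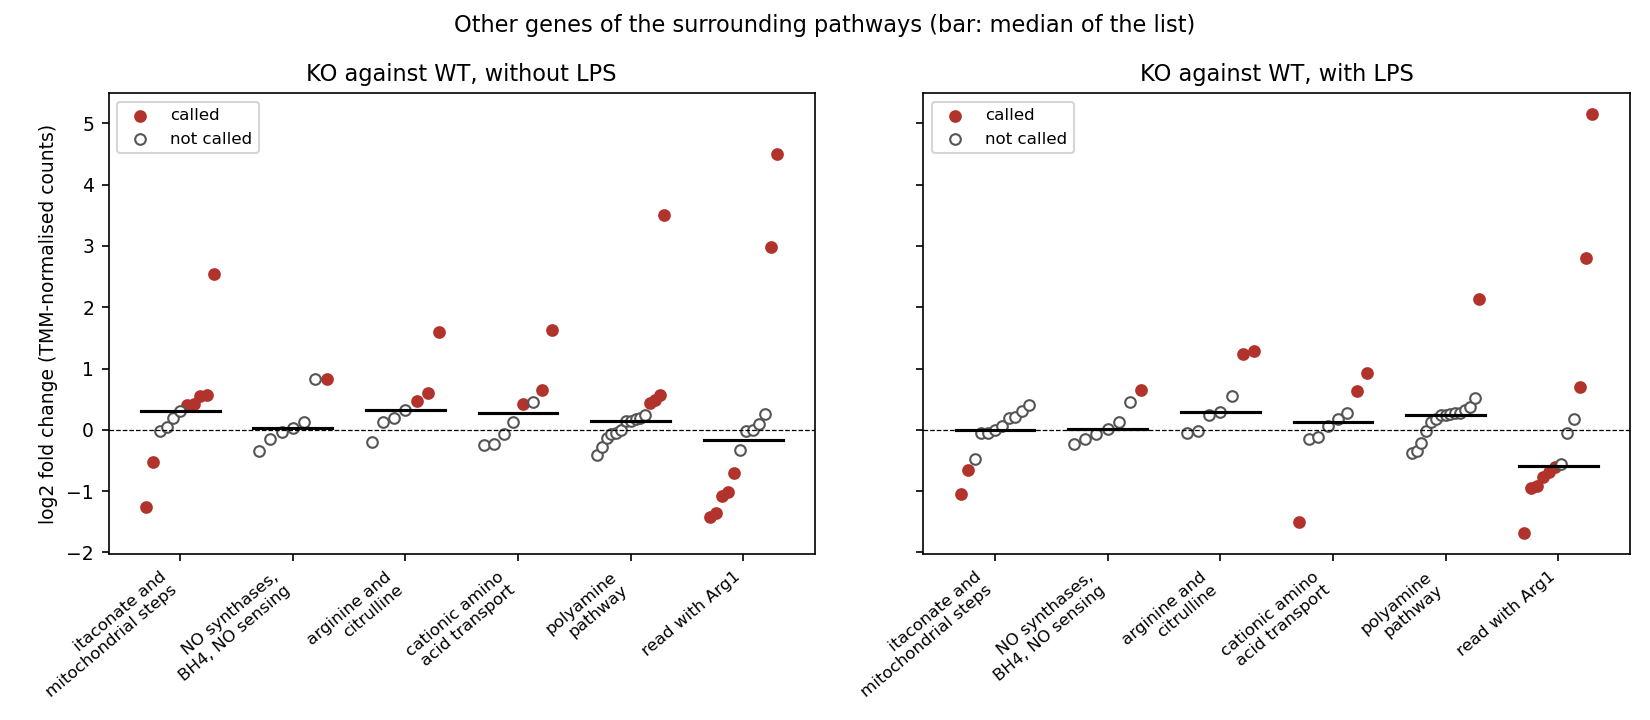
Log2 fold change of every tested gene of the 6 lists other than the 8 genes themselves, for KO against WT without LPS (left) and with LPS (right), with filled points for calls, open points for values not called and a bar at the median of each list. The 7 genes of arginine and citrulline handling have medians of 0.32 and 0.28, above 0, while the 12 genes read with Arg1 have medians of -0.17 and -0.58 and spread widely in both directions.

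The other counts of 0 given for these lists in 1 direction were also 0 in DESeq2, and at an unadjusted p under 0.05 in edgeR, without a fold cutoff, they came to between 0 and 6 genes.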

How the data were processed

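RNA of 12 BMDC libraries, 3 per group, was sequenced. Per the labels ribosomal RNA was depleted before a TruSeq preparation, while the methods name a stranded poly(A) kit. After trimming (Trim Galore) and alignment with STAR (version 2.5.1 in the submitters' processing notes) on the mm10 build, the authors deposited 1 RSEM table per library with expected counts, TPM and effective lengths per gene. Whether RSEM counted by strand is not given in the sources used here. Groups came from the labels. From here, expected counts were rounded, scaled by TMM and tested over 14008 genes (edgeR 4.0.16, quasi-likelihood, filterByExpr, all 12 libraries in 1 fit without covariates), with Benjamini-Hochberg adjustment over all of them. A call needed an adjusted p under 0.05 and a change above 2-fold for LPS, 1.3-fold for KO against WT and 1.5-fold for KOL against WTL, the cutoffs of the study's plots of WTL against WT, KO against WT and KOL against WTL. The 2-fold cutoff was carried over to KOL against KO, for which the study states none, and the interaction needed the adjusted p alone. Intervals are 1.96 SE. The fit was first tested on simulated counts.

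The alternatives were DESeq2 1.42.0, limma 3.58.1 on the log2 of TPM with 1 or 0.1 added, other filters and scalings, glmTreat, a replicate block and leaving out each library. edgeR was also run on only the 6 libraries of each comparison. In each list at most 2 called rises and 2 called falls per comparison with a mean of at least 100 normalised counts are named with values, and other called genes that are named were chosen after their values were seen. The 8 genes and all lists were chosen with earlier results of these data known. Gene positions are from GENCODE M21.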

Additional observations from a re-analysis of the deposited data

Results flagged for a closer look

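The LPS response of 3 genes differed between the genotypes by the interaction term of the edgeR fit. For Nos2 it was -2.02 on the log2 scale (KO minus WT, adjusted p = 0.00035), and it lay between -2.25 and -1.76 when each library was left out in turn. For Slc7a2 it was 1.03 (adjusted p = 0.0067), with a range of 0.86 to 1.28 over the same fits. For Gch1 it was -0.46 (adjusted p = 0.039), with a range of -0.54 to -0.32 and an adjusted p of up to 0.19. No group had enough libraries for a test of outlying samples.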

How the results depend on the processing

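No pairing of samples by replicate number was found. Same-numbered libraries had correlations between -0.33 and 0.13, and not every library was closest to its own number. The correlations used deviations from means of 3 libraries, so they cannot exclude pairing. The replicate block is given here only. With the block 1 of the 8 genes was called lower in the interaction in place of 2 (Gch1, -0.46, adjusted p = 0.064), and no other count of called genes among the 8 changed. Over all genes the block moved the interaction's calls from 2443 to 2063. The interaction's lower calls were also 1 in limma on log2(TPM + 1) and on log2(TPM + 0.1), 3 in DESeq2, where Ass1 was called (-0.27, adjusted p = 0.026), and 1 to 3 when each library was left out. The LPS rises in KO were 4 to 5 over the fits without 1 library, 5 with Arg1 called. Without a fold cutoff 8 genes rose with LPS in WT, 7 in KO and 1 in KOL against WTL. With glmTreat, which tests against the cutoff itself, 0 of the 8 rose in KO against WT. Directions turned in log2(TPM + 1) and log2(TPM + 0.1) alike for the LPS difference of Ass1 in WT (-0.12) and in KO (-0.30) and for the interaction of Acod1 (0.06) and Odc1 (0.04), and without a filter for that of Acod1 (0.00). Leaving out single libraries turned the interaction of Acod1 (-0.11 to 0.12) and Odc1 (-0.10 to 0.07) and the KO against WT value of Nos2 (-0.27 to 0.18), none of which was called. The LPS rise of Gch1 in KO was 0.80 and 0.82 on the 2 TPM scales, below the cutoff. Nos2 without LPS and Arg1 in KO had too few counts to show small differences.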
